A study of Arabidopsis thaliana with 22 samples.

Results

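The genes described here are 43 nuclear genes of the photosynthetic apparatus of *Arabidopsis thaliana*, among 27444 protein-coding genes on chromosomes 1 to 5. They were chosen by annotated function and not by any measured value, although earlier results of these data were known at the time. They comprise 10 *LHCB*, 4 *LHCA* and 4 *RBCS* genes, 12 genes of photosystem I subunits, 10 of photosystem II subunits and 3 of mobile or membrane electron carriers. For each gene, all peaks that overlapped the gene or 2 kb on either side were taken from 10 deposited peak lists, and peaks with a summit (the base of highest coverage) inside the gene were noted. All 43 loci were found in the annotation, and every gene had a peak within 2 kb in at least 1 list.

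The lists come from chromatin immunoprecipitation and sequencing (ChIP-seq) of acetylated histone H3 in etiolated, that is dark-grown, seedlings at 3 days of age. Seedlings of *ein2-5*, a mutant of the central ethylene signalling gene *EIN2*, and of the wild type Col-0 were given 10 p.p.m. ethylene or air for 4 h. Acetylation of H3 lysine 14 (H3K14Ac) and lysine 23 (H3K23Ac) was profiled in both genotypes with ethylene and in air, and that of lysine 9 (H3K9Ac) in Col-0 only. The authors pooled 18 ChIP libraries into 10 lists, with 2 libraries in each except for Col-0 H3K14Ac (1 per treatment), so each condition is 1 list with no replicate, and no test between conditions was made.

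Photosystems I and II are pigment-protein complexes of the thylakoid membrane. Their light-harvesting antennae and many of their subunits are encoded in the nucleus, while the reaction centre proteins are made in the plastid. In the dark the seedling has etioplasts in place of chloroplasts, and most of these nuclear genes are kept at a low level of transcription until light arrives. Acetylation of the H3 tail is found mainly in the first nucleosomes downstream of the start of genes that are open to transcription.

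The lists differed in depth. The 10 pooled ChIP samples held 16981322 to 37674460 tags, and the IgG controls, against which peaks were called, held 2438541 (Col-0 air) to 13683768 (*ein2-5* air) tags. The peak caller reduces the larger library of a pair, here always the ChIP, to the size of the smaller, so with a shallow control only strong enrichment is called. For this reason counts of genes are given here beside the share of all protein-coding genes under the same rule, and again with every list scaled to the shallowest control where that moved a count by more than 1.5 times. Fold enrichment, the authors' ratio of coverage to local background at a summit, was read only within a list, as was its percentile, the share of the list's peaks with a lower fold enrichment. The median fold enrichment of all H3K14Ac peaks was 2.18 with ethylene and 1.85 in air in *ein2-5*, and 2.00 and 2.52 in Col-0. The values of 1 gene in different lists, given side by side below, therefore do not compare its acetylation between conditions. Chromatin of whole tissue was assayed, so fewer cells with a mark and less of the mark per cell cannot be told apart.

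H3K9Ac marked nearly all of these genes with ethylene. In Col-0 a summit lay inside 39 of the 43 genes (90.7%) with ethylene, where 56.1% of all protein-coding genes had a summit, and inside 25 (58.1%) in air, against 36.2% of all genes. A peak within 2 kb was present at 40 genes with ethylene and at 32 in air, beside 77.3% and 57.9% of all genes. The genome is compact, and of 74 ethylene peaks within 2 kb of a gene of the set, 42 had their summit in one of the set and 29 in another gene. Of the 21498 genes no longer than the longest of the 43 (3207 bp), 51.3% had a summit with ethylene. All 12 photosystem I genes, all 10 photosystem II genes, all 4 *RBCS* genes and all 3 carrier genes had a summit in the ethylene list, as did 7 of 10 *LHCB* and 3 of 4 *LHCA* genes. In the air list the counts were 9 of 12 photosystem I, 7 of 10 photosystem II, 1 of 4 *RBCS*, 3 of 3 carrier, 3 of 10 *LHCB* and 2 of 4 *LHCA* genes. The 4 genes without an H3K9Ac summit in either list were *LHCB1.1*, *LHCB1.2* and *LHCB2.2* of the main antenna of photosystem II and *LHCA1* of the antenna of photosystem I.

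H3K23Ac in Col-0 marked more of the genes than H3K14Ac. An H3K23Ac summit lay inside 31 genes (72.1%) with ethylene and 18 (41.9%) in air, where 39.3% and 17% of all genes had one. H3K14Ac summits lay inside 24 genes (55.8%) with ethylene and 7 (16.3%) in air, beside 43.8% and 10.6% of all genes. Within 2 kb, H3K23Ac peaks were found at 33 genes with ethylene and 27 in air (62.5% and 31.5% of all genes), and H3K14Ac peaks at 30 and 10 (67.3% and 20.9% of all genes). Scaled to the shallowest control, the ethylene lists kept an H3K9Ac summit in 36 of the genes (48.6% of all genes), an H3K23Ac summit in 20 (20.3% of all genes) and an H3K14Ac summit in 10 (24% of all genes). The Col-0 air lists have that control and were not changed by the scaling, so that the H3K23Ac counts then stood at 20 genes with ethylene and 18 in air, and the H3K14Ac counts at 10 and 7. With peaks of at least 2-fold alone, H3K14Ac summits with ethylene were inside 7 genes (16.3%), where 25.5% of all genes had one. The H3K14Ac share with ethylene was thus above that of all genes as deposited, near it at the common depth and below it at 2-fold.

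In *ein2-5*, in the lists as deposited, the share of these genes with an H3K14Ac summit was below that of all genes in both treatments. The mutant had an H3K14Ac summit inside 7 genes (16.3%) with ethylene and 11 (25.6%) in air, where 27% and 29.6% of all genes had one. H3K23Ac summits lay inside 14 genes (32.6%) with ethylene and 19 (44.2%) in air, beside 35.4% and 37.2% of all genes. Peaks of H3K14Ac within 2 kb were counted at 14 genes with ethylene and 18 in air (46.8% and 51.2% of all genes), and peaks of H3K23Ac at 24 and 26 (57.8% and 60.9% of all genes). The order of the *ein2-5* treatments turned at a common control depth: H3K14Ac summits were then inside 7 genes (16.3%) with ethylene and 4 (9.3%) in air, beside 22.4% and 7.99% of all genes, and H3K23Ac summits inside 14 (32.6%) and 7 (16.3%), beside 30.4% and 11.6%. The H3K14Ac share in air was thus below that of all genes as deposited and above it at the common depth, and it was also above it with a fold enrichment of at least 2 (14% against 10.2%). The *ein2-5* air control held more tags than the *ein2-5* ethylene control, and its part in the higher air counts cannot be told apart from that of the treatment.

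**Figure D1:**
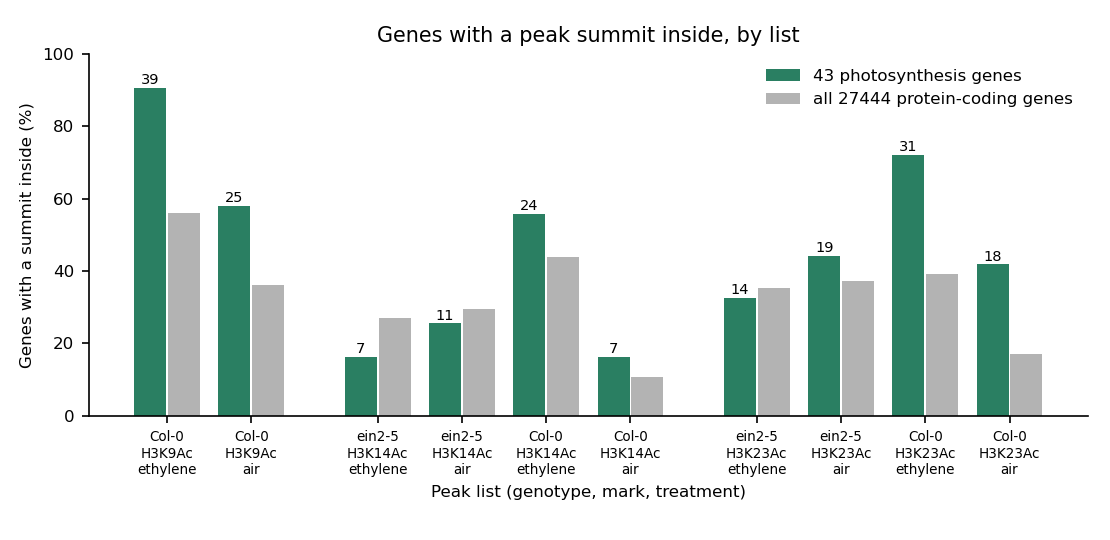
Share of the 43 photosynthesis genes (green, with the number of genes above each bar) and of all 27444 protein-coding genes (grey) with a peak summit inside the gene, in percent, for each of the 10 peak lists. In these lists as deposited, the green bar is above the grey bar in all 6 Col-0 lists and in the *ein2-5* H3K23Ac air list, and below it in the other 3 *ein2-5* lists.

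The other genes fixed for comparison help to place these counts. Of 22 further nuclear photosynthesis genes, such as other antenna genes and those of ferredoxin, the plastid ATP synthase and the Calvin cycle, 19 had an H3K9Ac summit with ethylene and 9 in air in Col-0. All 22 genes of chlorophyll synthesis had one with ethylene and 17 in air, and none of 7 floral identity genes, which act in flowers and not in seedlings, had one in either list. Over the 10 lists, 1 of the 7 floral genes had a summit inside in 1 list, that of *ein2-5* air H3K14Ac. In *ein2-5* with ethylene, H3K14Ac summits lay inside 11 of the 22 further photosynthesis genes (50%) and 9 of the 22 chlorophyll synthesis genes (40.9%). The 43 genes stood at 7 (16.3%), and all genes at 27%. In air the H3K14Ac shares were 50%, 54.5% and 25.6% in the same order, and 29.6% of all genes. For H3K23Ac they were 45.5%, 54.5% and 32.6% with ethylene (all genes 35.4%). In air they were 54.5%, 63.6% and 44.2% (all genes 37.2%). The comparison sets were not counted at the common control depth.

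Positions were taken only for summits inside a gene, by the rule, and most of these sat in its first part. In the Col-0 ethylene H3K9Ac list the median summit of the 39 genes was 346 bp from the annotated start, and that of all genes with a summit was 349 bp. The medians over the 10 lists ran from 318 to 440 bp for these genes and from 340 to 426 bp for all genes. Of the 195 gene and list combinations with a summit inside, 180 had the summit in a coding exon, 11 in an intron and 4, all of *PETC*, in an exon outside the coding sequence. A peak covered some part of the 250 bases upstream of the start at 1 of the 43 genes (2.33%) in the Col-0 ethylene H3K9Ac list, where 7.48% of all genes had one. That gene was *PSAH2*, whose upstream bases overlap a neighbouring gene. No list had a summit in the 250 bases upstream of any of the 43 genes. Of all genes 0.113% to 1.02% had one, depending on the list, so this absence is near the whole.

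**Figure D2:**
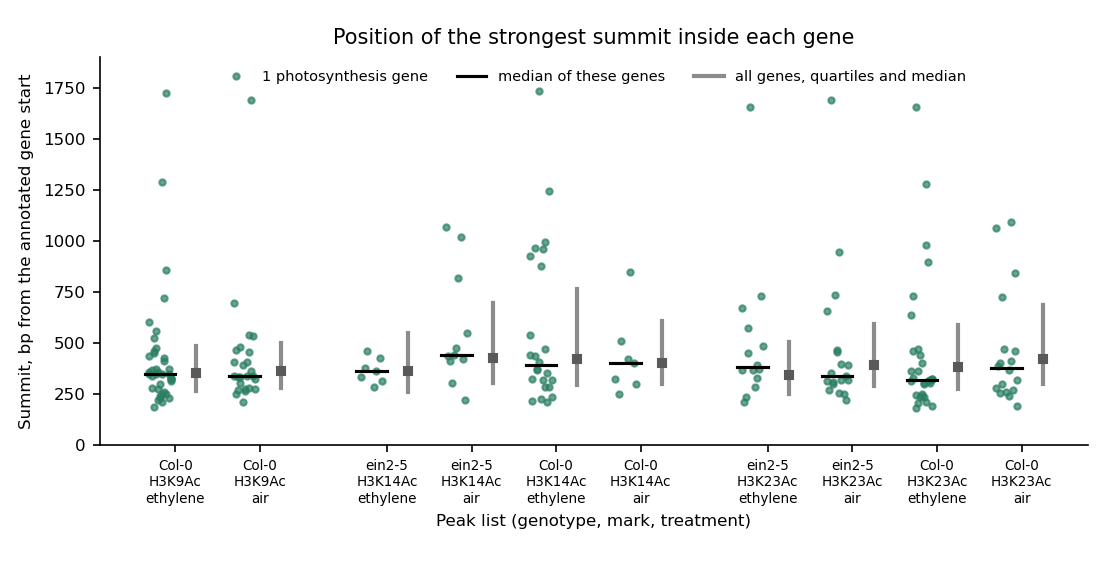
Distance in bp of the strongest peak summit inside a gene from the annotated start of that gene, for each photosynthesis gene (green points, black line at their median) and for all genes (grey square at the median, bar from the lower to the upper quartile), in each of the 10 lists. Most points lie below 500 bp, and the highest point of both H3K9Ac lists, at 1724 bp with ethylene and 1689 bp in air, is *PSBS*.

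Some genes had summits farther inside, in several lists. *PSBS*, whose protein is needed for the dissipation of excess light energy, had them at 1656 to 1732 bp in all 6 lists with a summit, in a gene annotated at 3207 bp. *LHCB6*, a minor antenna protein of photosystem II, had them at 818 to 943 bp in 7 lists. *PSBO2*, a protein of the oxygen-evolving complex, had its strongest summit at 364 bp with ethylene and 391 bp in air in *ein2-5* H3K23Ac. In the Col-0 ethylene lists it lay at 1288 bp for H3K9Ac, 1243 bp for H3K14Ac and 1276 bp for H3K23Ac. These 3 genes were named after their positions were seen.

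In the Col-0 lists as deposited, the median percentile of these genes stood farthest from that of all genes for H3K14Ac. The gap depended on the setting, and lists of other marks had wide gaps in some settings. With ethylene in Col-0 the median percentile of the strongest H3K14Ac peak was 28 over 24 genes, against 58.1 over all genes with a summit, and 7 of the 24 were at or above the 50 percentile. With peaks of at least 2-fold alone, 7 genes were left and their median was 51.5, against 52.6 over all genes. With q under 0.05 the median was 36.2 over 21 genes (all genes 57.5), and at the common depth 37.9 over 10 (51.3). The H3K14Ac air list gave a median of 17.5 over 7 genes, against 51.5 over all genes. With peaks of at least 2-fold it was 20.6 over 6 genes (all genes 50.8). With q under 0.05 a single gene was left, at the 95.7 percentile. For H3K9Ac the median percentiles were 59.4 with ethylene and 47.7 in air, against 55.5 and 52.1 over all genes, and for H3K23Ac they were 54.3 with ethylene and 42.7 in air, against 55.2 and 52.2. In *ein2-5* the genes called had a higher median than all genes in 4 of 4 lists as deposited, with medians for H3K14Ac of 67.9 with ethylene and 72.0 in air (all genes 52.0 and 53.6), and for H3K23Ac of 55.8 and 70.0 (all genes 53.0 and 54.5). With peaks of at least 2-fold alone, the *ein2-5* H3K14Ac air median was 45 over 6 genes (all genes 50.6) and the H3K23Ac ethylene median 47.1 over 13 genes (all genes 52), so both were then below the whole, as was the H3K23Ac ethylene median at the common depth, 46.8 (all genes 51.6). The *ein2-5* H3K23Ac air median stayed above the whole at the common depth, 64.1 over 7 genes (all genes 50.4). In Col-0 air with q under 0.05, the H3K23Ac median was 24.2 over 11 genes (all genes 51). These percentiles describe called genes only, since a gene without a summit has no value.

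The combinations of marks inside the genes were counted in Col-0. With ethylene, 24 of the 43 genes (55.8%) had summits of all 3 marks, where 32.9% of all genes did, and 9 (20.9%) had H3K9Ac alone, where 11.9% did. Another 6 genes (14%) had H3K9Ac and H3K23Ac without H3K14Ac, beside 4.4% of all genes, and 0 had H3K9Ac and H3K14Ac without H3K23Ac, beside 6.92%. No mark had a summit in 3 genes (6.98%), against 39% of all genes. At the common control depth 10 genes (23.3%) had all 3 marks (15.8% of all genes), 17 (39.5%) had H3K9Ac alone (21.6%), 9 (20.9%) had H3K9Ac with H3K23Ac (3.88%), 0 had H3K9Ac with H3K14Ac (7.28%) and 6 (14%) had none (50.2%). In air, 6 genes had all 3 marks (9.03% of all genes), 10 had H3K9Ac alone (20.8% of all genes), 9 had H3K9Ac with H3K23Ac (5.5% of all genes), 0 had H3K9Ac with H3K14Ac (0.816% of all genes) and 15 had none (61.2% of all genes). No gene of the set thus had H3K9Ac with H3K14Ac and without H3K23Ac in any of these 3 counts. The 9 genes with H3K9Ac alone in the deposited ethylene lists were the 4 *RBCS* genes, *LHCB3*, *PSAH1*, *PSAH2*, *PSAO* and *PSBP1*.

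**Figure D3:**
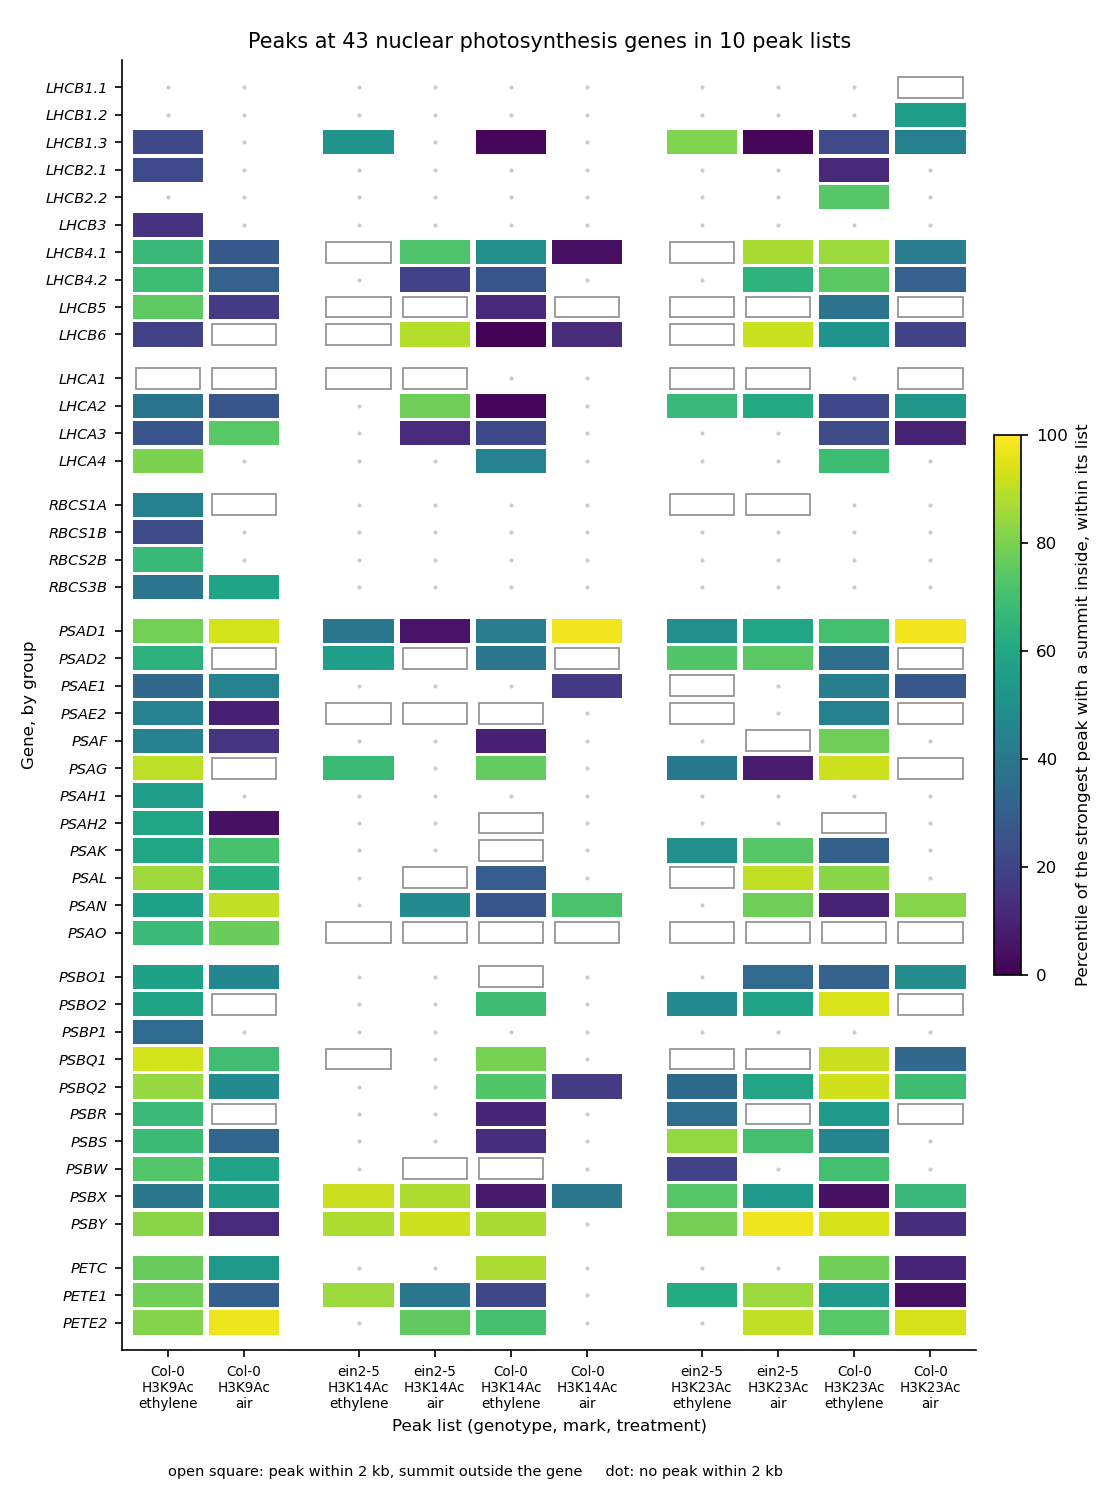
Each row is 1 of the 43 genes, by group, and each column 1 peak list. Filled cells have a summit inside the gene, coloured by the percentile of the fold enrichment of the strongest such peak within its list, open cells a peak within 2 kb with the summit outside the gene, and dots no peak within 2 kb. The *RBCS* rows are filled only in the H3K9Ac columns, and the *PSAD1* and *PSBX* rows are filled in all 10.

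The antenna of photosystem II binds most of the chlorophyll of the leaf. *LHCB1*, *LHCB2* and *LHCB3* encode the proteins of its abundant trimers, and *LHCB4*, *LHCB5* and *LHCB6* the minor antenna proteins that link the trimers to the core. Summits lay inside the 4 minor antenna genes in 4 to 8 lists, and inside the 6 trimer genes in 0 to 7 lists, where 1 of them, *LHCB1.3*, had more than 2. *LHCB4.1* (AT5G01530, chr5:208866-210548, plus strand of TAIR10) had a summit inside in 8 of 10 lists, the most of the group. Its H3K9Ac fold enrichment was 2.979 with ethylene and 2.298 in air in Col-0. For H3K14Ac it was 2.03 in *ein2-5* air, 2.00 in Col-0 ethylene and 1.85 in Col-0 air, and for H3K23Ac 2.29 in *ein2-5* air, 2.44 in Col-0 ethylene and 2.42 in Col-0 air. The 2 lists without a summit inside were those of *ein2-5* with ethylene, and all its summits lay between 301 and 367 bp from the start.

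The *LHCB1* genes of the set are near-identical neighbours on chromosome 1. *LHCB1.1* (AT1G29920, chr1:10474656-10475969, minus strand) had no summit inside in any list, the fewest of the group, and its single peak within 2 kb, of 2.59-fold in Col-0 air H3K23Ac, had its summit in *LHCB1.2*. *LHCB1.2* (AT1G29910, chr1:10472280-10473502, minus strand) had that summit alone. *LHCB1.3* (AT1G29930, chr1:10477885-10479114, plus strand) had a summit in 7 lists. Its fold enrichment was 2.06 for H3K9Ac with ethylene in Col-0, and no H3K9Ac peak was called in air. For H3K14Ac it was 2.19 in *ein2-5* ethylene and 1.49 in Col-0 ethylene, and no peak was called in air in either genotype. For H3K23Ac the values were 2.58 with ethylene and 1.44 in air in *ein2-5*, and 1.76 with ethylene and 2.45 in air in Col-0. It was the only *LHCB* gene with a summit in either *ein2-5* ethylene list. The 101 bases centred on the *LHCB1.3* H3K9Ac summit in the Col-0 ethylene list are shown with the best matching 101 bases of the other 2 copies, because reads from such stretches can be placed at more than 1 gene. All 3 lie in coding exons of TAIR10 and are written on the strand of the gene, at chr1:10478161-10478261 for *LHCB1.3*, chr1:10475702-10475802 for *LHCB1.1* and chr1:10473056-10473156 for *LHCB1.2*. Capitals mark the 3 positions at which the copies differ.
LHCB1.3: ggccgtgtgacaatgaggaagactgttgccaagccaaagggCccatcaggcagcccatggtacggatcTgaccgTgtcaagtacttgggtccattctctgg
LHCB1.1: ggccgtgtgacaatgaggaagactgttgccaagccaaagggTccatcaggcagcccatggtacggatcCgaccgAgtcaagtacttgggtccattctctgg
LHCB1.2: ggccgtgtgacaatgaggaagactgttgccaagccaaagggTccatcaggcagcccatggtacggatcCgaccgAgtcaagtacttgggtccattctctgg

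The stretches of *LHCB1.1* and *LHCB1.2* are the same in all 101 bases. Reads of the study were 51 bases long, and of the 51 words of that length in each stretch, 51 occur at a single place in the genome for *LHCB1.3*, and 0 for *LHCB1.1* and *LHCB1.2*. Over the whole gene the share of such unique words was 80.1% in *LHCB1.1*, 89.9% in *LHCB1.2* and 83.6% in *LHCB1.3*. *LHCB2.1* (AT2G05100) and *LHCB2.2* (AT2G05070), a similar pair on chromosome 2, had 79.0% and 74.5%. *LHCB2.1* had a summit in 2 Col-0 ethylene lists, with 2.08-fold for H3K9Ac and 1.66-fold for H3K23Ac, and *LHCB2.2* in 1, with 2.25-fold for H3K23Ac. In both genes every list from air and every *ein2-5* list was without a peak within 2 kb. *LHCB3* (AT5G54270), in which all words (100%) are unique, had a single summit, of 1.93-fold for H3K9Ac with ethylene.

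Over all 43 genes, 8 had less than 90% unique words: the *LHCB1* and *LHCB2* genes and *RBCS1B*, *RBCS2B* and *RBCS3B*. In the Col-0 ethylene H3K9Ac list 5 of these 8 had a summit, and 34 of the other 35 (97.1%). In the Col-0 ethylene H3K23Ac list the counts were 3 of 8 and 28 of 35 (80%). The split by unique words was added after the calls were seen, and its part in the missing peaks was not tested.

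The antenna of photosystem I is built from the *LHCA* proteins. *LHCA2* (AT3G61470, chr3:22745514-22747444, plus strand) had a summit in 8 lists, the most of the 4 genes. Its H3K9Ac fold enrichment was 2.38 with ethylene and 2.29 in air in Col-0. H3K14Ac gave 2.09 in *ein2-5* air and 1.47 in Col-0 ethylene, and no peak in the other 2 lists. H3K23Ac gave 2.39 with ethylene and 1.94 in air in *ein2-5*, and 1.76 with ethylene and 2.56 in air in Col-0. *LHCA1* (AT3G54890, chr3:20339504-20341176, minus strand) had no summit inside in any list, although all its words of 51 bases are unique. It had peaks within 2 kb in 7 lists, all with their summits outside the gene, of 3.16-fold with ethylene and 2.36-fold in air for H3K9Ac and of 3.06-fold in air for H3K23Ac in Col-0. The other 4 lists were those of *ein2-5*. *LHCA4* had summits of all 3 marks in Col-0 with ethylene and none in any other list.

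The *RBCS* genes, which encode the small subunit of the carbon-fixing enzyme Rubisco, were marked by H3K9Ac alone. With ethylene the H3K9Ac fold enrichment in Col-0 was 2.48 for *RBCS1A* (AT1G67090) on chromosome 1, and for the tandem genes on chromosome 5 it was 2.09 for *RBCS1B* (AT5G38430), 2.98 for *RBCS2B* (AT5G38420) and 2.39 for *RBCS3B* (AT5G38410). In air *RBCS3B* had a summit, of 2.79-fold, and the other 3 genes had none inside, although *RBCS1A* had a peak of 2.25-fold within 2 kb. None of the 4 genes had an H3K14Ac or H3K23Ac summit inside in any of the 8 lists of these marks. *RBCS1A* had H3K23Ac peaks within 2 kb in *ein2-5*, of 2.503-fold with ethylene and 1.906-fold in air, with their summits outside the gene. Unique words made up 85.7% of *RBCS1B*, 87.3% of *RBCS2B*, 82.2% of *RBCS3B* and all of *RBCS1A*, which had the same H3K9Ac-only pattern. At the common control depth *RBCS1B*, *LHCB2.1* and *LHCB3* lost their H3K9Ac summit.

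Photosystem I genes included some of the most widely marked of the set. *PSAD1* (AT4G02770, chr4:1229031-1230164, minus strand) encodes a subunit at which ferredoxin docks, and had a summit inside in all 10 lists. Its H3K9Ac fold enrichment was 3.265 with ethylene and 3.79 in air. For H3K14Ac it was 2.08 with ethylene and 1.52 in air in *ein2-5*, and 1.93 with ethylene and 3.87 in air in Col-0. For H3K23Ac it was 2.21 with ethylene and 1.93 in air in *ein2-5*, and 2.197 with ethylene and 3.94 in air in Col-0. Its peaks in the Col-0 air lists stood near the top of these lists, at the 98.21 percentile for H3K14Ac and the 98.32 percentile for H3K23Ac. *PSBX* (AT2G06520, chr2:2587729-2588448, minus strand), a small membrane protein of photosystem II, was the other gene with a summit in all 10 lists. Its H3K9Ac fold enrichment was 2.401 with ethylene and 2.73 in air. For H3K14Ac it was 2.81 with ethylene and 2.25 in air in *ein2-5*, and 1.60 with ethylene and 2.405 in air in Col-0. For H3K23Ac it was 2.47 with ethylene and 1.89 in air in *ein2-5*, and 1.55 with ethylene and 2.76 in air in Col-0. Of all genes, 6.24% had a summit in all 10 lists, and 35.9% had none in any list, where the 43 genes had 2 of each kind. At the common control depth *PSAD1* kept a summit in 8 lists and *PSBX* in 7. The stretches that hold the 10 summits of *PSAD1* and of *PSBX* are shown because every list as deposited has a summit in them. They are coding sequence of TAIR10 on the strand of the gene, at chr4:1229605-1229725 for *PSAD1* and chr2:2587990-2588142 for *PSBX*. Capitals mark the bases from the first to the last summit, 81 in *PSAD1* and 113 in *PSBX*, with 20 bases on either side.
PSAD1: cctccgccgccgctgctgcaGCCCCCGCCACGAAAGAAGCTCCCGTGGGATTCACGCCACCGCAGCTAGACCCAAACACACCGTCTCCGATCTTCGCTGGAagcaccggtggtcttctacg
PSBX: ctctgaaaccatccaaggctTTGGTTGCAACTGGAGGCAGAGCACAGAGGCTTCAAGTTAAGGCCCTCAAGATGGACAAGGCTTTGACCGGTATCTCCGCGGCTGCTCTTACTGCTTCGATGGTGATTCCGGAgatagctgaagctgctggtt

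At the other end of photosystem I, *PSAH1* (AT3G16140, chr3:5467987-5469594, minus strand) had a single summit, of 2.73-fold for H3K9Ac with ethylene, and no peak within 2 kb in any other list. Its paralog *PSAH2* (AT1G52230) had H3K9Ac summits of 2.80-fold with ethylene and 1.84-fold in air and no summit of the other marks inside. The *PSAH* proteins sit where the mobile antenna binds photosystem I. *PSAD2*, the second copy of *PSAD*, had a summit in 6 lists, those of ethylene in both genotypes and of *ein2-5* air H3K23Ac. *PSAG*, a peripheral membrane subunit, had the same 6 lists, and its H3K9Ac and H3K23Ac peaks with ethylene in Col-0 stood at the 90.01 and 92.53 percentiles. The 12 genes had a median of 5 lists with a summit inside, from 1 to 10.

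In photosystem II, the proteins of *PSBO*, *PSBP* and *PSBQ* form the shell of the oxygen-evolving complex on the lumen side. *PSBP1* (AT1G06680, chr1:2047634-2049439, plus strand) had the fewest lists of the group, a single H3K9Ac summit of 2.303-fold with ethylene, and no peak within 2 kb in any other list. *PSBQ1* had the highest H3K9Ac fold enrichment of the 43 genes with ethylene, 3.94, and had summits in 5 of 6 Col-0 lists and in 0 of 4 *ein2-5* lists. *PSBY*, a small membrane subunit, had a summit in 9 lists, all but Col-0 air H3K14Ac, and kept all 9 at the common control depth, the most of the 43 genes. The 10 genes had a median of 5 lists, from 1 to 10.

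The electron carriers were marked in more lists than the other groups, with a median of 7. *PETE1* and *PETE2* encode plastocyanin, the copper protein that carries electrons to photosystem I, and *PETC* encodes the Rieske iron-sulphur protein of the cytochrome complex before it. *PETE1* (AT1G76100, chr1:28553883-28554930, minus strand) had a summit in 9 lists. Its H3K9Ac fold enrichment was 3.25 with ethylene and 2.33 in air in Col-0. H3K14Ac gave 2.63 with ethylene and 1.79 in air in *ein2-5*, and 1.76 with ethylene in Col-0, with no peak in Col-0 air. H3K23Ac gave 2.33 with ethylene and 2.25 in air in *ein2-5*, and 2.03 with ethylene and 1.81 in air in Col-0. *PETC* (AT4G03280, chr4:1440146-1441863, plus strand) had the fewest lists of the 3, all in Col-0. Its H3K9Ac fold enrichment was 3.22 with ethylene and 2.72 in air, its H3K14Ac value 2.525 with ethylene, with no peak in air, and its H3K23Ac values 2.32 with ethylene and 1.96 in air. In *ein2-5* it had no peak within 2 kb in any of the 4 lists, with ethylene or in air. *PETC* had the highest H3K14Ac fold enrichment of the 24 genes called with ethylene in Col-0.

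The calls in the lists of each pair of treatments were compared gene by gene. A call in 1 list alone is a difference in calls, and a change in acetylation was not tested. In Col-0 an H3K9Ac summit was inside 14 of the 43 genes (32.6%) with ethylene and not in air, where 20.1% of all genes had that pattern, and inside 0 in air and not with ethylene, where 0.142% did. These 14 genes were *LHCB1.3*, *LHCB2.1*, *LHCB3*, *LHCB6*, *LHCA4*, *RBCS1A*, *RBCS1B*, *RBCS2B*, *PSAD2*, *PSAG*, *PSAH1*, *PSBO2*, *PSBP1* and *PSBR*. For H3K14Ac, 18 genes (41.9%) had a summit with ethylene alone, against 33.7% of all genes, and 1, *PSAE1*, in air alone, against 0.455%. For H3K23Ac, 14 genes (32.6%) had a summit with ethylene alone, against 23.8% of all genes, and 1, *LHCB1.2*, in air alone, against 1.59%. By peaks within 2 kb, 8, 21 and 9 genes were called with ethylene alone for H3K9Ac, H3K14Ac and H3K23Ac, and 0, 1 and 3 in air alone. The same rule took 19.4%, 46.9% and 32.8% of all genes with ethylene alone and 0.0583%, 0.455% and 1.71% in air alone. The Col-0 ethylene control held more tags than the Col-0 air control, which favours calls in the ethylene lists. At the common depth an H3K9Ac summit was inside 11 genes (25.6%) with ethylene alone and 0 in air alone, beside 13.8% and 1.34% of all genes. For H3K14Ac the counts were 7 (16.3%) with ethylene alone and 4 (9.3%) in air alone, beside 15.8% and 2.49% of all genes, and the share with ethylene alone was then near that of all genes. For H3K23Ac they were 9 (20.9%) and 7 (16.3%), beside 9.28% and 6.03% of all genes. By peaks within 2 kb at this depth, H3K9Ac had 6 genes with ethylene alone and 0 in air alone (14.3% and 0.98% of all genes), H3K14Ac 7 (16.3%) and 3 (6.98%), where the shares of all genes were 25.4% and 3.34%, and H3K23Ac 5 (11.6%) and 8 (18.6%), where they were 14.4% and 8.42%.

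In *ein2-5*, peaks within 2 kb of H3K14Ac were called with ethylene alone at 3 of the 43 genes and in air alone at 7, beside 9.99% and 14.4% of all genes. For H3K23Ac the counts were 3 with ethylene alone and 5 in air alone, beside 8.5% and 11.6% of all genes. Summits of H3K14Ac were inside 3 genes (6.98%) with ethylene alone and 7 (16.3%) in air alone, beside 8.03% and 10.6% of all genes, and summits of H3K23Ac inside 2 (4.65%) and 7 (16.3%), beside 7.89% and 9.69%. Summits of H3K14Ac were inside *LHCB1.3*, *PSAD2* and *PSAG* with ethylene and not in air, and inside *LHCB4.1*, *LHCB4.2*, *LHCB6*, *LHCA2*, *LHCA3*, *PSAN* and *PETE2* in air and not with ethylene. At the common depth the H3K14Ac summit counts were 5 (11.6%) with ethylene alone and 2 (4.65%) in air alone, beside 16.5% and 2.01% of all genes, and the H3K23Ac counts 11 (25.6%) and 4 (9.3%), beside 21% and 2.16%. Within 2 kb the H3K14Ac counts at this depth were 6 (14%) and 1 (2.33%), beside 27.3% and 3.05% of all genes, and the H3K23Ac counts 15 (34.9%) and 1 (2.33%), beside 31.9% and 2.91%, which are near the shares of all genes.

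The calls in the *ein2-5* lists were likewise set against those in the Col-0 lists of the same treatment. With ethylene, no gene of the 43 had an H3K14Ac summit in *ein2-5* and not in Col-0, and 17 (39.5%) had one in Col-0 alone, where 3.23% and 20% of all genes had these patterns. For H3K23Ac with ethylene the counts were also 0 in *ein2-5* alone and 17 (39.5%) in Col-0 alone, where the shares of all genes were 7.16% and 11.1%. Within 2 kb, H3K14Ac peaks were at 1 gene in *ein2-5* alone and 17 in Col-0 alone (3.17% and 23.7% of all genes), and H3K23Ac peaks at 2 and 11 (7.54% and 12.3% of all genes). In air, H3K14Ac summits were inside 6 genes in *ein2-5* alone and 2 in Col-0 alone (20.8% and 1.74% of all genes), and H3K23Ac summits inside 6 and 5 (22.5% and 2.29% of all genes). Within 2 kb in air the H3K14Ac counts were 10 and 2 (32.6% and 2.27% of all genes), and the H3K23Ac counts 5 and 6 (31.9% and 2.5% of all genes).

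The controls of these pairs also differ in depth, with more tags in Col-0 with ethylene and in *ein2-5* in air. At the common depth, H3K23Ac summits with ethylene were inside 5 genes in *ein2-5* alone and 11 (25.6%) in Col-0 alone, beside 15.5% and 5.43% of all genes. In air they were inside 2 genes in *ein2-5* alone and 13 (30.2%) in Col-0 alone, beside 4.36% and 9.8% of all genes. By summits, H3K23Ac thus was called in Col-0 alone at more of these genes than in *ein2-5* alone in both treatments at this depth. Over all genes with ethylene the order was the other way. Within 2 kb at this depth the H3K23Ac counts with ethylene were 7 in *ein2-5* alone and 8 in Col-0 alone. The shares of all genes were 21.1% and 6.43%. In air the counts within 2 kb were 1 and 19, beside 7.34% and 15.7% of all genes. For H3K14Ac at the common depth, 3 genes had a summit in *ein2-5* alone and 6 in Col-0 alone with ethylene (8.22% and 9.74% of all genes), and 1 and 4 in air (3.9% and 6.52% of all genes). With 1 pooled list per condition, no spread between replicates can be set beside any of these differences. The 3 Col-0 lists of a treatment share 1 control, as do the 2 *ein2-5* lists, so these lists are not independent of each other.

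**Figure D4:**
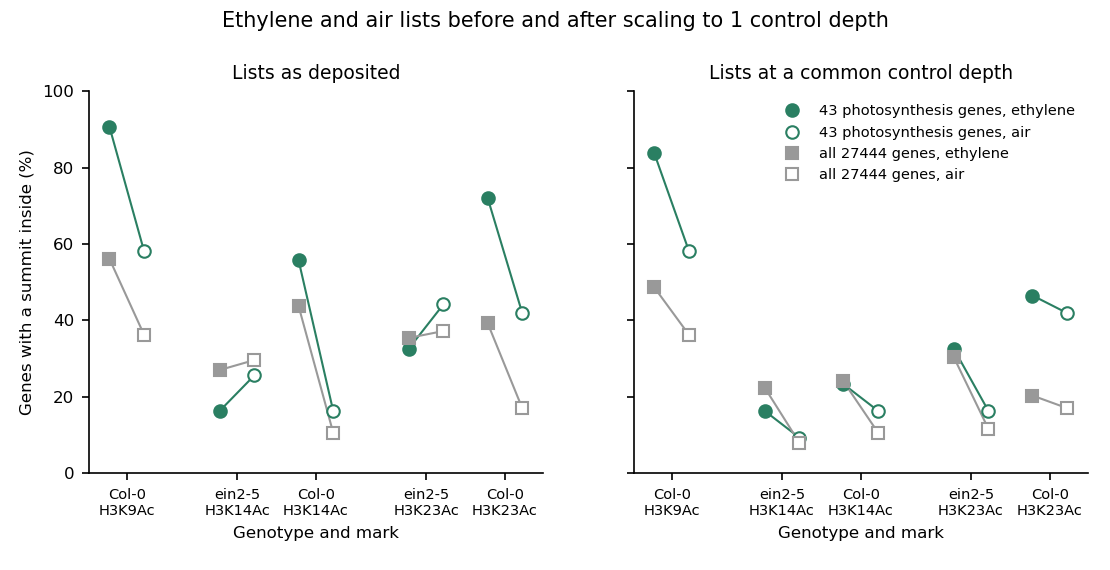
Share in percent of the 43 photosynthesis genes (green circles) and of all 27444 genes (grey squares) with a summit inside, with ethylene (filled) and in air (open) joined by a line, for each genotype and mark, in the lists as deposited (left) and scaled to the shallowest control (right). For *ein2-5* the ethylene points lie below the air points on the left and above them on the right, and the H3K9Ac and H3K23Ac shares of the photosynthesis genes in Col-0 stay above those of all genes on both sides.

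The bases upstream of the genes were searched for short motifs known from light-regulated plant promoters, as a description of sequence that the peak lists did not use. The G-box, CACGTG, was present in the 250 bases upstream of 8 of the 43 genes (18.6%), and of 6.49% of all 27443 genes with 250 bases upstream. The I-box, GATAAG on either strand, was upstream of 12 (27.9%), and of 12.3% of all genes. The CCA1-binding site, AAAAATCT on either strand, was upstream of 4 (9.3%, against 6.69%), and the TATA box, TATAAA on the strand of the gene in the last 100 bases, upstream of 5 (11.6%, against 17.9%). Both a G-box and an I-box were upstream of 4 genes (9.3%), *LHCB6*, *RBCS2B*, *PSAH2* and *PSBQ2*, and of 0.922% of all genes. A match is a description of these letters and not of a bound site. The 150 bases before the start are shown for the 3 of these genes in which no other gene lies over them. None of the 10 lists has a peak on these bases, and all 3 genes have summits inside. Such an absence is common, as 0.51% to 7.48% of all genes had a peak over the 250 bases upstream, depending on the list. The bases shown are on the strand of the gene in TAIR10, at chr1:5447881-5448030 for *LHCB6*, chr5:15382072-15382221 for *RBCS2B* and chr4:2673244-2673393 for *PSBQ2*. Capitals mark G-boxes and I-boxes, which do not overlap each other here.
LHCB6: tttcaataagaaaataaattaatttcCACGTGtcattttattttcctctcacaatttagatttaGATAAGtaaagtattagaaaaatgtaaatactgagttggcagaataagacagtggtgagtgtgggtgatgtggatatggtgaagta
RBCS2B: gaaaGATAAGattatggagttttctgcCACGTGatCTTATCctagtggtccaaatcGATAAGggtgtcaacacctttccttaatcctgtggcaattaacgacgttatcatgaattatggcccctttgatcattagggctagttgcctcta
PSBQ2: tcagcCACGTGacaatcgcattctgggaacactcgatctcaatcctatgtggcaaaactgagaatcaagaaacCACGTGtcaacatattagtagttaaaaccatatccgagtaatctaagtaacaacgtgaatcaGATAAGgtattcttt

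The members of this motif set differed in their peaks. *LHCB6* (AT1G15820, minus strand) had a summit inside in 7 lists, *PSBQ2* (AT4G05180, minus strand) in 8, *PSAH2* in 2 and *RBCS2B* in 1. The H3K9Ac fold enrichment with ethylene was 2.02 for *LHCB6*, 3.46 for *PSBQ2*, 2.80 for *PSAH2* and 2.98 for *RBCS2B*, and in air *PSBQ2* had 2.61 and *PSAH2* 1.84, while no summit was called inside *LHCB6* and *RBCS2B*.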

How the data were processed

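The 10 peak lists were made by the authors from 18 ChIP-seq and 4 IgG libraries of 3-day-old etiolated seedlings. Single-end reads were mapped to TAIR10 with Bowtie2 2.1.0, duplicates were removed with SAMtools, libraries of a condition were pooled, and peaks were called with MACS2 2.1.0.20150603 at a P of 0.01 and a fragment length of 200 bp, without a fragment model. The deposited columns are the pileup at the summit, which is a coverage signal, its ratio to the local background (fold enrichment), and −log10 of a p-value and a q-value. Per the file headers no q-value was to be reported, but the deposited column is filled and was used as it stands. Whether the Col-0 air control is the labelled IgG library is uncertain, since its tags are a far smaller part of the reads of that library than in the other controls, and the common control depth rests on it. No per-sample column remained unassigned (0 columns).

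Genes were 27444 protein-coding genes of a RefSeq annotation of TAIR10 newer than that of the study, and 0 of 105488 peaks ended beyond a chromosome. A gene was counted where a peak overlapped it or 2 kb on either side, or where a summit lay inside. Percentiles are the share of a list's peaks with a lower fold enrichment. Since each condition is 1 pooled list, no test was run and n is 1 list throughout. For the common depth, first used in an earlier account after the depths were known, both pileup and local background were multiplied down to a control of 2438541 tags, the Poisson p-value was computed again and peaks above 0.01 were dropped, so that peaks could be lost but not gained. Other settings required q below 0.05 or at least 2-fold enrichment, or used lists of equal length by −log10 of the p-value, peaks on the gene itself, summits in the first 500 bp, or a background of genes no longer than the longest of the 43. A restriction to genes with at least 90% unique words of 51 bases was chosen after seeing the data, as were the motifs, the sequences shown and the common depth for summits between lists and for mark combinations. The genes and lists were chosen with earlier results of these data known. Values are given in full for the genes with a summit in the most and the fewest lists of each group, for those with a summit in all 10 lists and for the *LHCB1*, *LHCB2* and *RBCS* copies, and other genes are named by what singles them out. Calculations were made in Python 3.11.15 with pandas 2.3.3, numpy 2.4.6 and scipy 1.17.1, and plots with matplotlib 3.10.9.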

Additional observations from a re-analysis of the deposited data

Results flagged for a closer look

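The difference between the ethylene and air counts of these genes had opposite signs in the 2 genotypes, in 4 counts. With a summit inside, *ein2-5* had 7 genes with ethylene and 11 in air for H3K14Ac, a difference of -4, and Col-0 had 24 and 7, a difference of 17, so that *ein2-5* differed from Col-0 by -21 genes. For H3K23Ac *ein2-5* had 14 and 19, a difference of -5, and Col-0 had 31 and 18, a difference of 13, so that the genotypes differed by -18 genes. Within 2 kb the differences between ethylene and air were -4 in *ein2-5* and 20 in Col-0 for H3K14Ac, which differ by -24 genes, and -2 in *ein2-5* and 6 in Col-0 for H3K23Ac, which differ by -8 genes. The difference between genotypes was not tested, since each value is a count from 1 pooled list. Over all protein-coding genes the share with a summit inside also moved in opposite directions, by -2.6 percentage points in *ein2-5* and 33.2 in Col-0 for H3K14Ac and by -1.8 and 22.3 for H3K23Ac. The depth of the controls moved with the counts, being lower with ethylene than in air in *ein2-5* (4333059 and 13683768 tags) and higher with ethylene than in air in Col-0 (10479732 and 2438541 tags). At a common control depth the counts with a summit inside were higher with ethylene than in air in both genotypes, at 7 and 4 genes in *ein2-5* and 10 and 7 in Col-0 for H3K14Ac, and 14 and 7 in *ein2-5* and 20 and 18 in Col-0 for H3K23Ac. The shares of all genes with an H3K14Ac summit were 22.4% and 7.99% in *ein2-5* and 24% and 10.6% in Col-0. For H3K23Ac they were 30.4% and 11.6% in *ein2-5* and 20.3% and 17% in Col-0. Within 2 kb at this depth the H3K23Ac count in Col-0 was lower with ethylene than in air, 24 and 27 genes. The share of all genes was higher with ethylene there, 37.4% and 31.5%. In *ein2-5* the H3K23Ac count was higher with ethylene, 23 and 9, as was the share of all genes, 52% and 23.1%. For H3K14Ac within 2 kb the count was higher with ethylene in both, with 13 and 8 genes in *ein2-5* and 14 and 10 in Col-0. The shares of all genes were 40.6% and 16.3% in *ein2-5* and 43% and 20.9% in Col-0. The part of control depth cannot be told apart from that of the treatment in the deposited counts.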

How the results depend on the processing

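No paired analysis was possible because the libraries of a condition were pooled before peaks were called, and for the same reason no library could be left out. Counts are of the 43 genes, and the cause of each shift was not tested beyond what the setting itself removes. The counts for summits in Col-0 H3K9Ac with ethylene and in air were lowered by more than 1.5 times by lists of equal length alone.

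The common control depth can only remove peaks, from lists with deeper controls. Col-0 with ethylene then had H3K14Ac peaks within 2 kb of 14 genes (32.6%), where 43% of all genes had one. H3K14Ac summits were in 10 genes (24% of all genes) and H3K23Ac summits in 20 (20.3%). With ethylene in Col-0, 10 genes had all 3 marks, 17 had H3K9Ac alone and 6 had none. In *ein2-5* air H3K14Ac was near 8 and inside 4 genes (16.3% and 7.99% of all genes). H3K23Ac was near 9 and inside 7 (23.1% and 11.6%). By peaks within 2 kb in 1 list of a pair alone, Col-0 had 7 genes with ethylene and 3 in air for H3K14Ac, and 5 and 8 for H3K23Ac. *ein2-5* had 6 with ethylene and 1 in air for H3K14Ac, and 15 and 1 for H3K23Ac. *ein2-5* against Col-0 gave 5 and 6 genes for H3K14Ac with ethylene (10.7% and 13.1% of all genes). In air the H3K14Ac counts were 2 and 4 (7.03% and 11.6%). The H3K23Ac counts were 7 and 8 with ethylene (21.1% and 6.43%) and 1 and 19 in air (7.34% and 15.7%). By summits, Col-0 had 7 with ethylene and 4 in air alone for H3K14Ac, and 9 and 7 for H3K23Ac, and *ein2-5* had 5 and 2, and 11 and 4, for the same marks. *ein2-5* against Col-0 by summits gave 3 and 6 for H3K14Ac with ethylene, 1 and 4 in air, and 5 and 11 for H3K23Ac with ethylene, 2 and 13 in air. The counts by summits between lists and of mark combinations were recomputed at this depth alone, a choice made after seeing the data.

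With a fold enrichment of at least 2, Col-0 with ethylene had 11 (near) and 7 (inside) genes for H3K14Ac (45.5% and 25.5% of all genes). H3K23Ac summits were inside 18 genes in Col-0 with ethylene (21.3% of all genes). H3K14Ac in *ein2-5* air was near 9 and inside 6 genes (20.3% and 10.2% of all genes). H3K23Ac in *ein2-5* air was near 12 and inside 10 genes (27.1% and 13.9% of all genes). The median percentile of the 10 was 58.2, against 51.4 over all genes with a summit. In 1 treatment alone, Col-0 had 6 with ethylene and 4 in air for H3K14Ac (29.9% and 3.47% of all genes). For H3K23Ac, Col-0 had 9 with ethylene and 10 in air (19.1% and 8.15%). *ein2-5* had 7 and 3 for H3K14Ac (22.5% and 6.66%) and 12 and 2 for H3K23Ac (26.7% and 6.73%). *ein2-5* against Col-0 gave 6 and 4 for H3K14Ac with ethylene (10.1% and 19.4% of all genes). In air the H3K14Ac counts were 5 and 5 (11.2% and 9.98%). H3K23Ac with ethylene was at 8 in *ein2-5* alone and 8 in Col-0 alone (18.9% and 11.1%). In air it was at 5 and 16 (12.1% and 13.3%).

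Peaks on the gene itself, in place of within 2 kb, were at 7 genes in *ein2-5* H3K14Ac with ethylene and 11 in air. In *ein2-5* H3K23Ac with ethylene they were at 14. The shares of all genes were 27.2%, 29.8% and 35.8%. In 1 list of a pair alone, peaks on the gene were at 14 for Col-0 H3K9Ac with ethylene (20.5% of all genes). For Col-0 H3K23Ac they were at 14 with ethylene and 1 in air (24% and 1.57%). For H3K14Ac in *ein2-5* and not Col-0 they were at 0 with ethylene and 6 in air (3.2% and 20.9%). For H3K23Ac with ethylene they were at 0 in *ein2-5* alone and 17 in Col-0 alone (7.28% and 11.1%).

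Lists of equal length, all cut to the shortest, leave 20.9% to 22.1% of all genes with a peak within 2 kb and 10.6% to 10.9% with a summit inside, so the counts of all lists but the shortest, Col-0 air H3K14Ac, fall by construction. Near and inside, Col-0 had 11 and 7 genes with ethylene and 11 and 6 in air for H3K9Ac, 4 and 1 with ethylene for H3K14Ac, and 14 and 11 with ethylene and 15 and 11 in air for H3K23Ac. *ein2-5* had 6 and 3 with ethylene and 9 and 5 in air for H3K14Ac, and 7 and 1 with ethylene and 9 and 7 in air for H3K23Ac. With ethylene the median percentile was 12.7 over 7 genes for Col-0 H3K9Ac, against 49.6 over all genes with a summit. It was 37.8 over 11 genes for Col-0 H3K23Ac (all genes 50.2). For *ein2-5* H3K23Ac with ethylene, 1 gene was left, at 29.7 (all genes 49.9). In 1 treatment alone, Col-0 had 4 with ethylene and 4 in air for H3K9Ac, 1 and 7 for H3K14Ac and 8 in air for H3K23Ac, and *ein2-5* had 1 and 4 for H3K14Ac. *ein2-5* against Col-0 gave 2 and 0 for H3K14Ac with ethylene, 3 and 4 in air, and 3 in *ein2-5* alone for H3K23Ac in air. Each of these patterns between 2 lists of equal length took 8.91% to 10.8% of all genes.

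With q under 0.05, Col-0 air had 3 (near) and 1 (inside) genes for H3K14Ac (9.85% and 4.6% of all genes). For H3K23Ac, Col-0 air had 15 and 11 (20.7% and 10.5%). Within 2 kb, 0 genes were in Col-0 air alone for H3K14Ac, against Col-0 ethylene or *ein2-5* air (0.113% and 0.885% of all genes). In Col-0, 19 had H3K23Ac with ethylene alone and 1 in air alone (41% and 1.13%). In air, 11 had H3K23Ac in *ein2-5* alone and 2 in Col-0 alone (39.9% and 1.72%). With summits in the first 500 bp alone, *ein2-5* air H3K14Ac had 7 genes (18.5% of all genes). The other counts per list and between lists that were recomputed, those restricted to mostly unique genes included, stayed within 1.5 times of the values in the text. The other median percentiles stayed within the 95% interval of the median over the genes, which is wide where few genes were called, as for H3K14Ac in Col-0.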
